A study of Mus musculus with 8 samples.

Results

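The genes described here encode the integrin subunits and the laminin chains, the cell surface receptors and the basement membrane ligands through which migrating cells hold on to their surroundings. They were the rows of the expression table with the mouse symbols Itga followed by a number or by 2b, d, e, l, m, v or x, Itgb with 1 digit, and Lama, Lamb or Lamc with 1 digit. By this rule 36 of 18561 genes were members, namely 17 integrin alpha subunits, 8 integrin beta subunits and 11 laminin chains. The cells were enteric neural crest cells, the migratory precursors of gut neurons and glia, sorted by antibodies to CD271 and CD57 from the gastrointestinal tract of mouse embryos at embryonic day 14.5. Tubes of about 200 cells each gave 8 libraries, 5 labelled Emb knockdown (numbered 1 to 5, here called kd-labelled) and 3 labelled WT (numbered 1 to 3). All 8 shared tissue, age, sort and library chemistry. Strain, sex, litter and the way in which Emb was knocked down are not given in the sources used here, and nothing says that the tubes came from separate animals, so p-values measure the spread between these tubes, which may be technical.

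An integrin is a pair of 1 alpha and 1 beta chain that spans the membrane and links matrix outside to actin inside through talin and kindlin. A laminin is a cross-shaped trimer of 1 alpha, 1 beta and 1 gamma chain that assembles the basement membrane. In the developing gut, beta1 integrins are known to be needed for neural crest cells to colonise the hindgut, where they meet fibronectin, tenascin and laminin. Leukocytes use a separate set, above all the alpha chains paired with beta2, to bind other cells and complement.

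Total counts ran from 20116607 to 26959265 per library. Levels within a gene are given in CPM, counts per 1000000 after TMM scaling, and 3 counts were worth 0.0966 to 0.155 CPM. The targeted gene, Emb, which encodes the adhesion glycoprotein embigin, went against the labels. Emb stood at 353, 349, 37.2, 21.4 and 21.7 CPM in kd-labelled libraries 1 to 5 and at 16.9, 17.7 and 15.9 CPM in WT 1 to 3, so every direction below is between libraries by label only. With 6 libraries its log2 fold change was 0.67 ± 0.26 (SE, edgeR adjusted p = 0.0972). Kd-labelled libraries 1 and 2 stood apart from the other 6. The 12 macrophage and leukocyte markers (none of them at 0 in any library) summed to 18203 to 21463 CPM there, 988 to 1733 CPM in kd-labelled libraries 3 to 5, and 266 to 472 CPM in WT. The 10 markers of enteric neural crest progenitors summed to 167 to 211 CPM, 1006 to 1121 CPM and 3018 to 3043 CPM in the same order, and Sox10, Foxd3 and Tlx2 were at 0 in 1 or both of kd-labelled libraries 1 and 2. Results are therefore given with all 8 libraries and again with 6, without those 2.

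The WT libraries gave the levels of receptors and matrix chains in the sorted material as a whole. In WT, gut mesenchyme markers summed to 2469 to 3680 CPM and smooth muscle markers to 1491 to 2313 CPM. Neural crest progenitor markers summed to 3018 to 3043 CPM beside them. Which cells each chain came from was not tested. Levels are compared between genes in FPKM, which is scaled to gene length. Itgb1, the beta chain shared by most matrix-binding integrins, was the highest member at 99.0 ± 13.0 FPKM (SD, n = 3), above every other member in each WT library. Itga5, which pairs with it as the fibronectin receptor, followed at 31.8 ± 6.00 FPKM, with Lamb1 at 30.8 ± 3.86 FPKM and Itgb5, a partner of the alpha v chain, at 29.5 ± 7.80 FPKM. The ranges of these last 3 overlapped, so their order is not settled. Lama4 (17.3 ± 3.44 FPKM), Lamc1 (13.7 ± 2.26 FPKM) and the alpha chains of laminin receptors Itga3 (13.0 ± 1.40 FPKM) and Itga6 (12.8 ± 0.166 FPKM) came next, and each overlapped its neighbour in that order. Lamb2, Itga9 and Itga4 were at 7.06 ± 1.16, 6.00 ± 1.06 and 4.18 ± 0.450 FPKM. The leukocyte chains Itgb2, Itgal, Itgam and Itgax were at 2.14, 0.860, 0.777 and 0.08 FPKM on average. Of the 36 members, 31 exceeded 1 FPKM in at least 1 library. The other 5, Itga7, Itgb4, Itgb6, Itgae and Lama3, did not, and Itgae was also the member with too few counts to be tested.

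**Figure D1:**
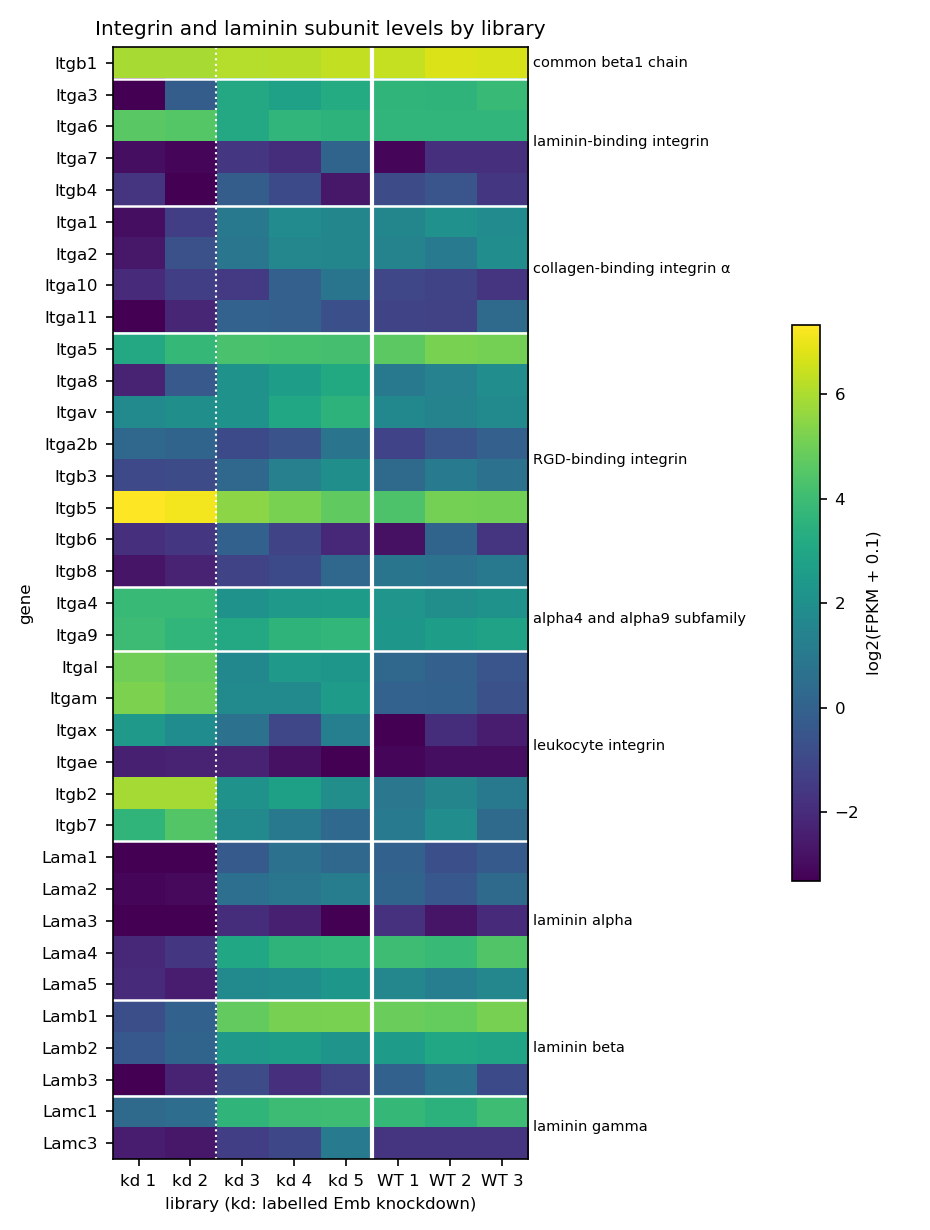
Colour shows log2(FPKM + 0.1) of 35 subunit genes (rows, grouped by role) in the 8 libraries (columns; kd stands for labelled Emb knockdown, the dotted line follows kd 2 and the solid line precedes WT). The laminin rows are dark and the leukocyte integrin rows bright in kd 1 and 2, where the laminin chains summed to 2.68 and 3.76 FPKM against 60.4 to 86.0 FPKM in the other 6 libraries.

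Kd-labelled libraries 1 and 2 lacked most laminin RNA and held another set of integrins. The 11 laminin chains together were at 2.68 and 3.76 FPKM in these 2 libraries. In kd-labelled libraries 3, 4 and 5 they were at 60.4, 77.4 and 82.3 FPKM, and in WT 1, 2 and 3 at 72, 69.7 and 86.0 FPKM, so the summed laminin level overlapped between those 6. The 25 integrin genes, in contrast, summed to 436 and 413 FPKM in kd-labelled libraries 1 and 2 and to 185 to 241 FPKM in the other 6. Itgb5 made up 54.7% and 49.3% of the beta chain FPKM there and Itgb1 20.9% and 21.4%, whereas in WT Itgb1 made up 72.5 ± 2.51% and Itgb5 21.3 ± 2.62% (SD, n = 3). Among alpha chains, Itgam and Itgal led in both of these libraries, at 26.5% and 22.6% of the alpha FPKM in the first and at 22.7% and 20.7% in the second. Itga5 led in WT with 38.1 ± 4.17%. These 2 libraries were singled out by their values and are described without a test. In bulk libraries, fewer cells of a type and less RNA per cell cannot be told apart.

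With all 8 libraries, no member passed the threshold, a p under 0.05 after Benjamini-Hochberg adjustment across the whole table. edgeR's quasi-likelihood test called 0 of 35 tested members and 0% of all 15411 genes. At an unadjusted p under 0.05 there were 7 members higher (Itgav, Itga4, Itga9, Itgal, Itgam, Itgax and Itgb2) and 2 lower (Itga5 and Itgb8) in the kd-labelled libraries, beside 12.7% of all genes higher, 5.9% lower and 18.6% in all. DESeq2's Wald test called 6 members higher and 1 lower, beside 9.81% and 3.69% of genes (13.5% in all), and limma voom with quality weights called 6 higher and 2 lower, beside 12.5% and 11.5% of genes (24% in all). By CPM, the libraries did not overlap between the labels for 6 members higher and 4 lower, beside 10.8% and 11.9% of all genes (22.7% in all).

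With 6 libraries, 8 of 35 members passed in edgeR's test, beside 20.4% of the 15115 genes tested, so the members as a whole were called about as often as other genes. The split of all genes was 11.1% higher and 9.37% lower here, and 8.1% higher and 13% lower on log2(FPKM + 1). The 6 that rose, beside 11.1% of all genes, were the leukocyte integrins Itgal, Itgam, Itgax and Itgb2 and the matrix receptor chains Itgav and Itga8. The 2 that fell, beside 9.37% of all genes, were Itga3 and Itga5, which encode alpha chains of a laminin and of the fibronectin receptor. None of the 11 laminin chains passed, while 4 of them had an unadjusted p under 0.05, Lama2, Lama5 and Lamc3 higher and Lama4 lower, beside 19.8% and 17.7% of all genes (37.5% in all). DESeq2 called 9 members higher and 2 lower, with Lama2 and Lamc3 among the former, beside 15.5% and 13.3% of genes (28.8% in all). Voom called 12 higher and 4 lower, with Lama1, Lama2 and Lama5 among the former and Lama4 among the latter, beside 23.4% and 22.2% of genes (45.7% in all). The median log2 fold change was 0.31 over the 35 members and 0.021 over all genes tested. The groups did not overlap for 11 members higher and 5 lower, beside 20.4% and 23% of all genes (43.4% in all).

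**Figure D2:**
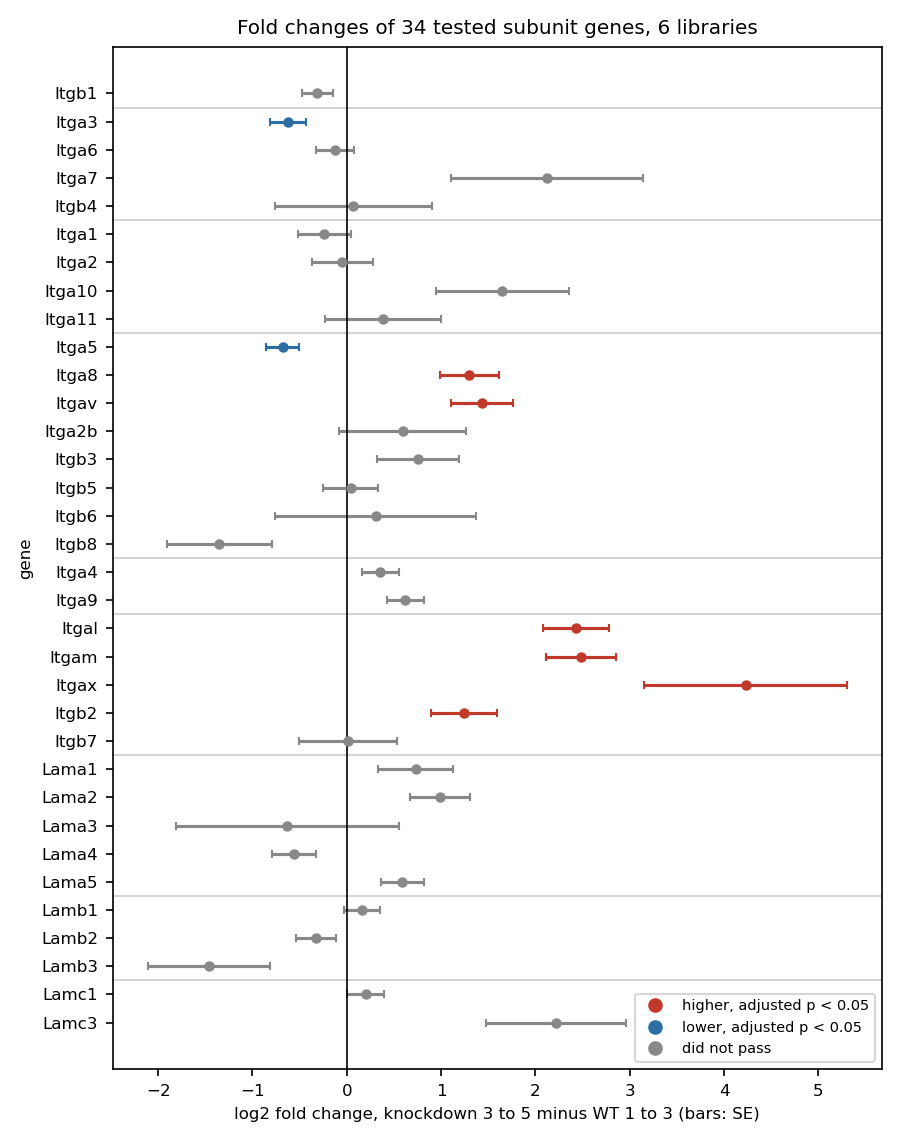
Points are log2 fold changes of 34 tested members, kd-labelled libraries 3 to 5 minus WT 1 to 3, from edgeR's quasi-likelihood fit of 6 libraries, with bars for the standard error and lines between roles. The 4 leukocyte integrins that passed lie between 1.24 and 4.23, Itgav and Itga8 at 1.44 and 1.30, and Itga3 and Itga5 at -0.62 and -0.68.

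Promoter sequence is shown for 4 members that passed, 3 of them higher and 1 lower, and for Itgb1, the highest member in WT, which did not pass. RefSeq promoters of GRCm38.p6 were matched for 23 of the 36 members, in 26 windows of the 250 bases before a transcript start, and each printed run stops at the base before the RefSeq gene begins. The runs are chr7:128062390-128062639 for Itgam (plus strand), chr7:128129300-128129525 for Itgax (plus), chr2:12301986-12302194 for Itga8 (minus), chr15:103366792-103367041 for Itga5 (minus) and chr8:128685404-128685653 for Itgb1 (plus). Each is written 5′ to 3′ on the strand of its gene. Capitals mark GAGGAA, the core letters bound by the myeloid factor PU.1, and GGGCGG, the GC box bound by Sp1, on either strand, so that the other strand's matches read TTCCTC and CCGCCC.
Itgam: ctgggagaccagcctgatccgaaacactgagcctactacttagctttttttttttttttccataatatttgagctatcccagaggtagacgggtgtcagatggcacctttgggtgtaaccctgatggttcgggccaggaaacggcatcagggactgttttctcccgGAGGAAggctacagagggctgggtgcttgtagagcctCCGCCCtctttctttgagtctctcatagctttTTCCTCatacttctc
Itgax: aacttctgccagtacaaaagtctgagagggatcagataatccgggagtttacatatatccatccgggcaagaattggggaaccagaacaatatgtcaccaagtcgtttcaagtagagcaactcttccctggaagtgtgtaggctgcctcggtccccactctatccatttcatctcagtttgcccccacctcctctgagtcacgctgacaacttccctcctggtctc
Itga8: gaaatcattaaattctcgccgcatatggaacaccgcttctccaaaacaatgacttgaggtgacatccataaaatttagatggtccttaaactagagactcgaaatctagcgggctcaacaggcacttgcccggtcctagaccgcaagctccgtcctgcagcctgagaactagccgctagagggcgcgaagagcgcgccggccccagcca
Itga5: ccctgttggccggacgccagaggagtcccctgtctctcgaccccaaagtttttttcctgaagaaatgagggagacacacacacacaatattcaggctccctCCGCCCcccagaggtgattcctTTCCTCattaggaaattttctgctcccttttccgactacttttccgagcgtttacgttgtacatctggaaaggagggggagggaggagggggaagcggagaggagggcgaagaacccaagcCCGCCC
Itgb1: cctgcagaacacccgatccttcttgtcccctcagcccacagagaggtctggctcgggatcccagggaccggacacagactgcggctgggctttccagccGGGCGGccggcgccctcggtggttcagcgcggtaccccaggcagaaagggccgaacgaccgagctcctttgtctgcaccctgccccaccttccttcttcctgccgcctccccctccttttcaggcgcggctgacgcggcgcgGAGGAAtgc
The Itgam run held GAGGAA on both strands and 1 GC box, and the run of Itgax, its neighbour on chromosome 7 which also rose, held neither motif. Itga8 had neither. Itga5 and Itgb1 each had 1 match to GAGGAA, and Itga5 had 2 GC boxes and Itgb1 had 1. The motifs thus did not follow the direction of the calls in these 5 runs. Over all 250-base windows, 23.3% of 32851 held GAGGAA and 32.7% held GGGCGG, against 13 and 9 of the 26 member windows. Of 5 other motifs searched on both strands, ACAAAG of SOX factors was in 2 member windows, TTGTTT of forkhead factors in 5, the E-box CACGTG in 0, the AP-1 site TGACTCA in 1 and the TATA box TATAAA in 0. Their shares of all windows were 16.5%, 18.3%, 6.02%, 4.46% and 12.4%. Matches of different motifs did not overlap in the printed runs. A match is a description of letters and not a binding site.

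Of the leukocyte integrins, Itgal, Itgam, Itgax and Itgb2 were higher in each kd-labelled library than in any WT library. Itgal and Itgam encode the alpha chains of LFA-1 and of complement receptor 3, Itgax that of a close relative on dendritic cells and macrophages, and Itgb2 their common beta chain. The 3 alpha genes lie on chromosome 7 of GRCm38.p6, Itgal from 127296139 to 127335137, Itgam from 128062640 to 128118491 and Itgax from 128129526 to 128150657. Itgam stood at 223 and 168 CPM in kd-labelled libraries 1 and 2, at 14.0, 13.8 and 23.9 CPM in those labelled 3 to 5, and at 3.78, 3.45 and 2.05 CPM in WT 1 to 3. It fell into 3 separate levels, and with 6 libraries it rose by 2.48 ± 0.37 on the log2 scale (SE, adjusted p = 0.00792). Itgal showed the same order, with 213 and 171 CPM, then 14.0, 25.6 and 22.5 CPM, then 5.13, 3.70 and 2.72 CPM. Its log2 fold change with 6 libraries was 2.43 ± 0.35 (adjusted p = 0.00713). Itgb2 was at 205 and 199 CPM, at 10.3, 16.1 and 8.90 CPM, and at 4.26, 6.31 and 4.37 CPM, a log2 fold change of 1.24 ± 0.35 with 6 libraries (adjusted p = 0.0388). Itgax was at 26.4 and 15.4 CPM, at 5.44, 1.40 and 8.30 CPM, and at 0, 0.515 and 0.257 CPM in WT. A count of 0 in WT 1 allows up to 0.130 CPM, and the log2 fold change of 4.23 ± 1.08 (adjusted p = 0.0296) rests on few WT counts, which were 0, 16 and 7.

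Beside these genes the leukocyte markers moved in the same direction, 10 of 12 higher with 6 libraries and 2 not passing, and their part in the result was not tested. Measured against those markers, the sum of the 4 genes kept a narrow ratio in 7 of the 8 libraries, while single genes varied more. The 4 genes summed to 3.11 and 3.04 CPM per 100 CPM of the 12 markers in kd-labelled libraries 1 and 2, to 2.99 and 3.29 in those labelled 3 and 4, and to 3.07, 2.96 and 3.53 in WT. Kd-labelled library 5 stood above all others at 6.44, with Itgal at 2.28 and Itgam at 2.42 per 100 CPM of markers against 0.785 to 1.48 and 0.731 to 1.04 in the other 7. Itgax was at 0.840 there and from 0 to 0.372 in the other 7. Itgb2 did not share this, at 0.901 there and 0.704 to 1.64 elsewhere. The ratio depends on the markers summed, and these did not move together in kd-labelled library 5. Lyz2 was at 44.0 CPM there against 162 and 257 CPM in those labelled 3 and 4. C1qb was at 125 CPM against 367 and 322 CPM. Csf1r, at 226 CPM, and Ptprc, at 75.5 CPM, were higher there than in those labelled 3 and 4. The part of the marker sum in the value of 6.44 was not tested. Itgb7, the beta chain that pairs with alpha4 or alpha E in lymphocytes, was at 41 and 68.8 CPM in kd-labelled libraries 1 and 2, at 7.66, 4.58 and 2.95 CPM in those labelled 3 to 5 and at 4.74, 7.73 and 2.64 CPM in WT. The last 2 sets overlapped (log2 fold change 0.012 ± 0.52, adjusted p = 0.99). Itgae, which encodes alpha E, never exceeded 0.518 CPM.

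With each of the 6 libraries left out in turn, the call of Itgam was kept each time (adjusted p from 0.00221 to 0.0454), and that of Itgal was lost without kd-labelled library 4 (0.0518). The call of Itgb2 was lost without kd-labelled library 4 (0.159) or WT 1 (0.115), 2 (0.0859) or 3 (0.142), and that of Itgax without kd-labelled library 4 (0.0692) or 5 (0.0797) or WT 1 (0.0527), 2 (0.0658) or 3 (0.104).

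**Figure D3:**
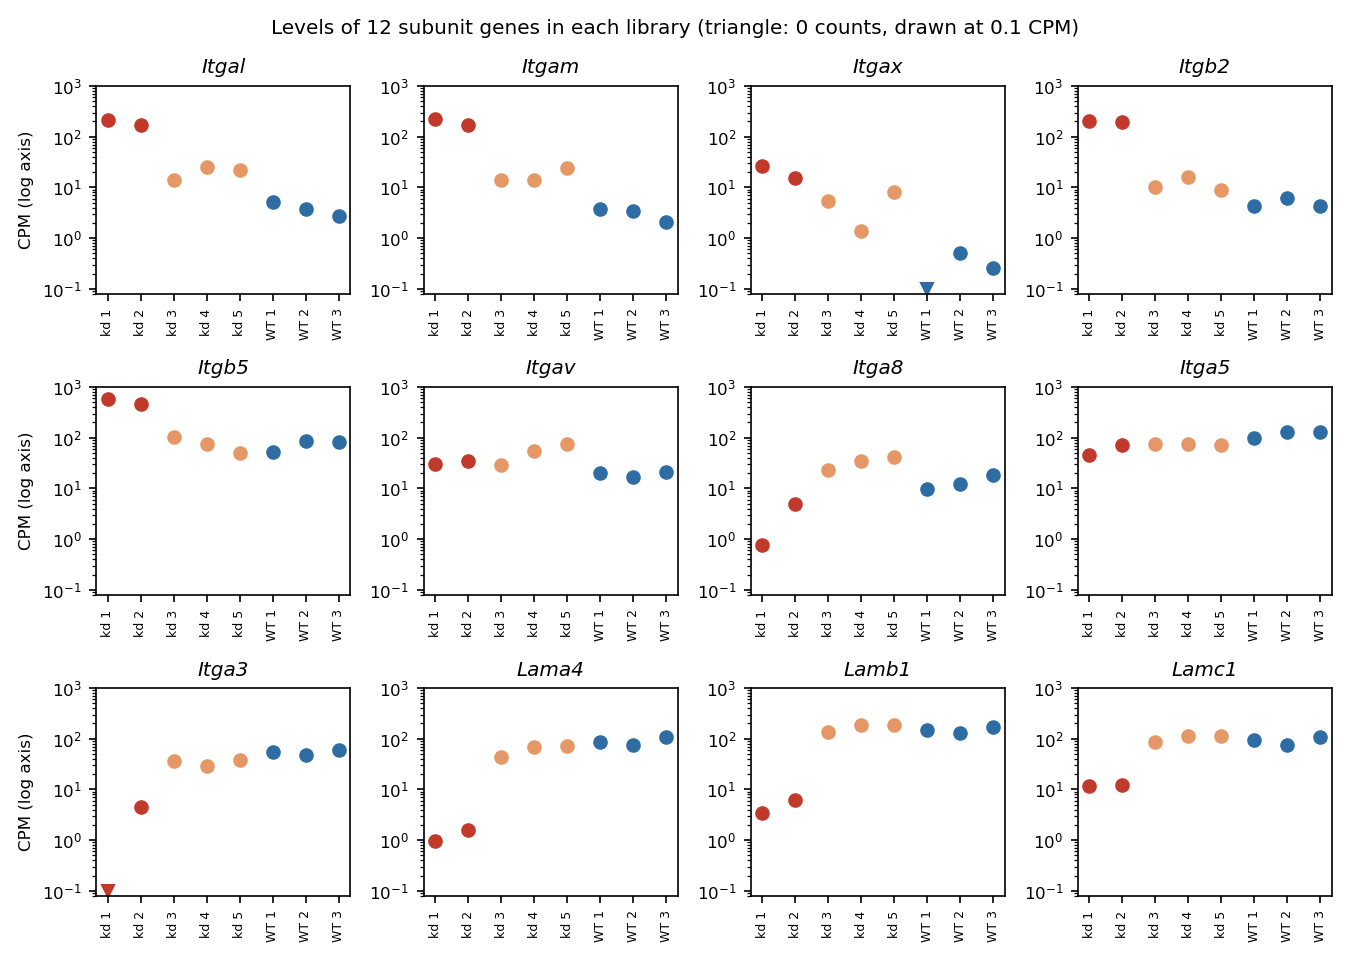
Each panel gives 1 gene's CPM on a log axis in the 8 libraries, with dark red for kd-labelled libraries 1 and 2, orange for 3 to 5 and blue for WT; a triangle marks 0 counts, drawn at 0.1 CPM. The 4 leukocyte integrins of the top row descend from kd 1 and 2 through kd 3 to 5 to WT, while Lama4, Lamb1 and Lamc1 are at 12 CPM or less in kd 1 and 2 and at 44.3 CPM or more in the other 6.

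Among the integrins that bind the RGD sequence of fibronectin, vitronectin and related proteins, Itgav and Itga8 rose, Itga5 fell and 5 others did not pass with 6 libraries. Itgav encodes the alpha v chain, which pairs with beta1, 3, 5, 6 and 8. It was at 28.4, 54.5 and 75.9 CPM in kd-labelled libraries 3, 4 and 5 and at 20.5, 16.8 and 21.4 CPM in WT 1, 2 and 3, a log2 fold change of 1.44 ± 0.33 (adjusted p = 0.0224). The labelled groups did not overlap, and kd-labelled libraries 1 and 2, at 30.2 and 35.5 CPM, also lay above WT by CPM. In FPKM the one labelled 1, at 3.19, lay inside the WT range of 2.64 to 3.35. The one labelled 2, at 3.8 FPKM, lay above that range. Itga8, whose product binds nephronectin and is known from mesenchyme and smooth muscle, was at 22.7, 34.1 and 42.4 CPM against 9.74, 12.3 and 18.3 CPM (1.30 ± 0.31, adjusted p = 0.0251). Unlike Itgav it was low in kd-labelled libraries 1 and 2, at 0.773 and 4.90 CPM. Itga5 was at 76.0, 75.7 and 70.2 CPM in kd-labelled libraries 3, 4 and 5 and at 96.8, 132 and 127 CPM in WT (-0.68 ± 0.18, adjusted p = 0.0309), and at 46.5 and 71.1 CPM in those labelled 1 and 2. All 5 kd-labelled libraries thus lay below all 3 WT libraries.

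The beta partners of these alpha chains did not pass with 6 libraries. Itgb5 was at 574 and 470 CPM in kd-labelled libraries 1 and 2, where it was the highest member per gene length. In those labelled 3 to 5 it was at 103, 73.6 and 51.0 CPM and in WT at 51.6, 86.5 and 83.7 CPM, which overlapped (0.040 ± 0.29, adjusted p = 0.934). With 8 libraries its log2 fold change was 1.78 ± 0.89 (adjusted p = 0.339). Itgb3 was at 5.77, 12.9 and 20.1 CPM against 6.04, 9.31 and 7.59 CPM (0.76 ± 0.44, adjusted p = 0.237). Itgb8, which helps to activate latent TGF-beta, was at 0.962, 1.17 and 2.95 CPM against 4.43, 3.70 and 4.84 CPM and at 0.206 and 0.377 CPM in kd-labelled libraries 1 and 2. The labels did not overlap, with -1.35 ± 0.55 and an adjusted p of 0.112 with 6 libraries. Itgb8 passed as lower by voom with 6 libraries (adjusted p = 0.0204) and with 8, and on log2(FPKM + 1) with 6 (0.0454). Itgb6, an epithelial partner of alpha v, stayed between 0.174 and 3.83 CPM. In kd-labelled libraries 1 and 2, Itgb3 was at 2.99 and 3.25 CPM. Itga2b, the platelet alpha chain, lay between 1.00 and 4.80 CPM in all 8 libraries (0.59 ± 0.67 with 6 libraries, adjusted p = 0.548). Of the 8 platelet and megakaryocyte markers, Pf4 carried most of the summed level, at 783 and 558 CPM in kd-labelled libraries 1 and 2, 141, 296 and 120 CPM in those labelled 3 to 5 and 37.9, 10.1 and 3.71 CPM in WT. The other 7 summed to 7.11 and 17.6 CPM, to 4.33, 14.1 and 29.3 CPM and to 3.22, 2.87 and 7.08 CPM, which overlapped, and 2 to 4 of the 8 were at 0 in at least 1 library of each set.

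Mesenchyme and endothelium markers moved with the groups beside these matrix receptors, and their part in the results was not tested. The 8 gut mesenchyme markers summed to 4947 to 5445 CPM in kd-labelled libraries 3 to 5 and 2469 to 3680 CPM in WT, with 6 of 8 higher and none at 0. The 8 endothelium markers summed to 88.5 to 144 CPM against 355 to 514 CPM, with 6 of 8 lower and none at 0. The 6 smooth muscle markers overlapped, at sums of 1548 to 2980 CPM against 1491 to 2313 CPM, and none of them passed. Of the 10 neural crest progenitor markers, 8 were lower. In kd-labelled libraries 1 and 2 the sums were 57.0 to 477 CPM for mesenchyme, with Pdgfra at 0 in at least 1 of them, and 58.1 to 61.3 CPM for endothelium, with Tek, Emcn and Cldn5 at 0 in at least 1. Leaving out kd-labelled library 4 ended the calls of Itgav (adjusted p = 0.0918), Itga8 (0.0992) and Itga5 (0.112), leaving out the one labelled 5 did so too (0.052, 0.0652 and 0.0695), as did WT 2 (0.0887, 0.0964 and 0.135) and WT 3 (0.0802, 0.0564 and 0.134), and WT 1 for Itgav (0.0627) and Itga8 (0.0768).

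Of the beta1 chain and the 8 laminin and collagen receptor genes, Itga3 alone passed with 6 libraries. Itgb1 was at 322, 302, 259, 283 and 304 CPM in kd-labelled libraries 1 to 5 and at 310, 375 and 365 CPM in WT 1 to 3. The libraries labelled 3 to 5 lay below WT without passing (-0.31 ± 0.17, adjusted p = 0.207), and the one labelled 1 lay inside the WT range by CPM. In FPKM those labelled 1 and 2, at 61.1 and 60.3, lay below the WT range of 84.3 to 109. Itga3 was at 0 and 4.57 CPM in kd-labelled libraries 1 and 2, where the 0 allows up to 0.155 CPM. It was at 37.2, 29.3 and 38.3 CPM in those labelled 3 to 5 and at 53.7, 47.8 and 60.3 CPM in WT, and fell by 0.62 ± 0.19 on the log2 scale with 6 libraries (adjusted p = 0.0477). This was the call nearest to the threshold. It was lost on log2(FPKM + 1) (0.0527), on log2(FPKM + 0.1) (0.0533), without a filter on low counts (0.052) and without each of the 6 libraries other than kd-labelled library 3 (0.0612 to 0.193).

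Itga6 showed the opposite pattern in kd-labelled libraries 1 and 2, where it was at 184 and 166 CPM against 45.0, 70.9 and 62.8 CPM in those labelled 3 to 5 and 66.4, 62.9 and 65.9 CPM in WT. The last 2 sets overlapped (-0.12 ± 0.20, adjusted p = 0.679). Itga3 and Itga6 both encode laminin-binding alpha chains, and the lowest libraries for one were the highest for the other. Itga7, a muscle laminin receptor, was at most 0.889 CPM except in kd-labelled library 5, at 3.69 CPM. Itgb4, the hemidesmosome chain of epithelium, was at most 4.22 CPM. The collagen-binding alpha chains did not pass. Itga1 was at 0.206 and 2.12 CPM in kd-labelled libraries 1 and 2, at 10.2, 19.2 and 15.4 CPM in 3 to 5 and at 15.0, 20.4 and 17.5 CPM in WT. Itga2 followed a like order, at 0.567 and 4.62 CPM, at 11.1, 19.8 and 18.2 CPM and at 16.9, 11.5 and 22.5 CPM. Both overlapped between the labels in the 6 libraries and were lowest in the first 2. Itga10 was at 0.927 and 1.74 CPM, at 1.15, 4.02 and 7.56 CPM and at 1.69, 1.51 and 0.844 CPM (1.65 ± 0.71, adjusted p = 0.124). Itga11 was at 0 and 0.706 CPM, at 4.07, 3.98 and 2.21 CPM and at 1.56, 1.35 and 4.95 CPM.

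Itga4 and Itga9 form a subfamily that binds VCAM-1, fibronectin and tenascin, and both were highest in kd-labelled libraries 1 and 2. Itga9 was at 139 and 109 CPM there, at 46.7, 59.4 and 61.0 CPM in those labelled 3 to 5 and at 30.5, 36.3 and 42.0 CPM in WT. The labels did not overlap, but the log2 fold change of 0.62 ± 0.20 with 6 libraries just missed the threshold in edgeR (adjusted p = 0.0558). It passed by DESeq2 (0.0292), by voom (0.0102) and on log2(FPKM + 1) (0.0409). Itga4 was at 186 and 176 CPM, at 38.2, 47.8 and 52.2 CPM and at 41.2, 31.2 and 35.7 CPM, and the last 2 sets overlapped (0.36 ± 0.20, adjusted p = 0.22).

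Laminin RNA in the 6 libraries was mostly that of the alpha4, beta1 and gamma1 chains. Lamb1 was at 136, 186 and 184 CPM in kd-labelled libraries 3, 4 and 5 and at 149, 131 and 172 CPM in WT (0.16 ± 0.19, adjusted p = 0.562). Lamc1 was at 86.7, 114 and 111 CPM against 92.3, 74.0 and 106 CPM (0.20 ± 0.20, adjusted p = 0.485). Both overlapped between the groups, and both were far lower in kd-labelled libraries 1 and 2, at 3.50 and 6.12 CPM for Lamb1 and 11.4 and 12 CPM for Lamc1. Lamb1 made up 85.2 ± 2.98% of the beta chain FPKM in kd-labelled libraries 3 to 5 and 79.3 ± 4.25% in WT (SD, n = 3 each). Lamb2 was at 4.74 and 6.64 CPM in kd-labelled libraries 1 and 2, at 26.5, 32.3 and 22.4 CPM in 3 to 5 and at 28.9, 37.7 and 35.3 CPM in WT, and did not pass (-0.32 ± 0.21, adjusted p = 0.292).

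The alpha chains, which give a laminin trimer its receptor binding, differed among themselves. Lama4, typical of vessels and nerve, was at 44.3, 67.6 and 71.7 CPM in kd-labelled libraries 3 to 5 and at 85.7, 74.8 and 110 CPM in WT, without overlap and without passing (-0.56 ± 0.24, adjusted p = 0.12). Lama5, the broad chain of mature basement membranes, was at 33.7, 39.1 and 50.8 CPM against 30.6, 22.0 and 29.5 CPM, again without overlap and without passing (0.59 ± 0.23, adjusted p = 0.0933). Lama2, the chain of muscle and peripheral nerve, was at 12.2, 15.7 and 19.3 CPM against 8.43, 5.35 and 10.1 CPM (0.98 ± 0.32, adjusted p = 0.0582). Lama1, the early embryonic chain, was at 5.96, 13.6 and 9.45 CPM against 7.56, 3.99 and 5.98 CPM and overlapped (0.73 ± 0.40, adjusted p = 0.218). As shares of the alpha chain FPKM, Lama4 took 59.9%, 63.3% and 61.8% in kd-labelled libraries 3, 4 and 5 and 76.1%, 81.0% and 80.9% in WT 1, 2 and 3. Lama5 took 23.7%, 19.1% and 22.9% against 14.2%, 12.4% and 11.3%, and Lama2 took 10.1%, 9.03% and 10.1% against 4.64%, 3.55% and 4.53%. None of these 3 shares overlapped between the labels. Nor did that of Lama1, at 5.15%, 8.13% and 5.18% against 4.21%, 2.73% and 2.74%. The shares add up to the whole, so a lower Lama4 share goes with a higher sum of the others. By CPM, 43.4% of all genes did not overlap between these groups. In kd-labelled libraries 1 and 2 no laminin alpha gene exceeded 2.11 CPM. The shares are ratios of sums over members and are given without a test.

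**Figure D4:**
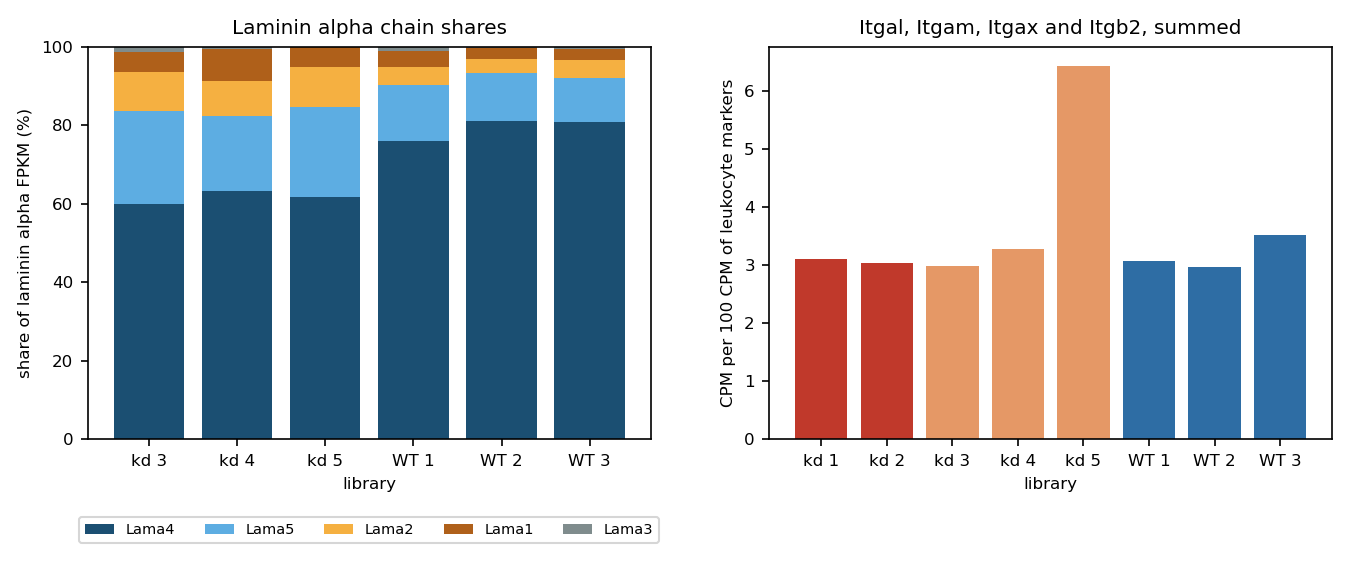
The left panel stacks the share of each laminin alpha chain in the summed alpha chain FPKM of 6 libraries, and the right panel gives the summed CPM of Itgal, Itgam, Itgax and Itgb2 per 100 CPM of the 12 leukocyte markers in 8 libraries (dark red for kd 1 and 2, orange for kd 3 to 5, blue for WT). Lama4 takes 59.9% to 63.3% in kd 3 to 5 and 76.1% to 81.0% in WT, and the ratio on the right lies between 2.96 and 3.53 except for 6.44 in kd 5.

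Lama3 and Lamb3, which encode the alpha3 and beta3 chains of epithelial laminins, were low throughout. Lama3 did not exceed 1.22 CPM and was at 0 in kd-labelled libraries 1, 2 and 5. Lamb3 was at 1.55, 0.655 and 1.15 CPM in kd-labelled libraries 3 to 5 and 3.17, 4.77 and 1.39 CPM in WT (-1.46 ± 0.65, adjusted p = 0.135). Both genes overlapped between the labels in the 6 libraries, and the 7 gut epithelium markers did too, at sums of 273 to 1110 CPM against 326 to 795 CPM. Lamc3, which encodes the gamma3 chain, was at 2.22 and 3.13 CPM in kd-labelled libraries 3 and 4 but at 15.7 CPM in the one labelled 5, against 1.61, 1.45 and 1.47 CPM in WT (2.22 ± 0.74, adjusted p = 0.0637). In kd-labelled libraries 1 and 2, Lamc3 was at 0.876 and 0.612 CPM and Lamb3 at 0 and 0.471 CPM.

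The partners of integrins and laminins were followed in 4 lists. Of 26 tested basement membrane and matrix ligands, 3 rose and 4 fell with 6 libraries (median log2 fold change 0.14), beside 11.1% of all genes higher and 9.37% lower. The share of this list called was thus near that of all genes. Fn1, the fibronectin bound by the Itga5 product, rose from 102 ± 21.2 CPM in WT to 253 ± 18.7 CPM (1.31 ± 0.20, adjusted p = 0.00792), while Itga5 fell. Thbs1, a matrix glycoprotein bound by alpha v beta3, rose by 1.55 ± 0.19 on the log2 scale, and the basement membrane collagens Col18a1 and Col15a1 fell by 1.80 ± 0.17 and by 1.25 ± 0.25. Of 11 tested genes for laminin receptors other than integrins, or for proteins linked to them, 2 rose and 4 fell (median -0.013). Beside them were the same 11.1% and 9.37% of all genes. Sdc4, a syndecan of focal adhesions, rose from 48.9 ± 9.45 to 123 ± 12.7 CPM (1.33 ± 0.19), and Rpsa, a ribosomal protein also known as a laminin receptor, rose by 1.00 ± 0.26. Bcam, which binds the alpha5 chain of laminin, fell from 77.8 ± 6.92 to 36.2 ± 8.12 CPM (-1.10 ± 0.20), and Sgcb, of the dystroglycan-linked sarcoglycans, fell by 0.73 ± 0.19. In kd-labelled libraries 1 and 2, Fn1 was instead at 28.7 and 34.9 CPM, below every WT library. Its log2 fold change with 8 libraries was 0.69 ± 0.79 (edgeR adjusted p = 0.698). Rpsa, at 1952 and 1618 CPM there, overlapped WT. Thbs1 and Sdc4 lay above WT in every kd-labelled library, and Col18a1, Col15a1, Bcam and Sgcb below.

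Counter-receptors on other cells and tetraspanin partners, 16 genes, had 5 lower and none higher with 6 libraries (median -0.66), beside 9.37% of all genes called lower. The endothelium markers were lower beside them, 6 of 8 with a median of -1.83, and their part in the result was not tested. Madcam1, the ligand of alpha4 beta7, was at 9.88, 9.21 and 0.415 CPM in kd-labelled libraries 3 to 5, at 0 in those labelled 1 and 2, and at 74.8, 51.3 and 71.0 CPM in WT (-3.33 ± 0.78, adjusted p = 0.0238). Icam2, an endothelial ligand of the Itgal product, was at 14.8, 9.03 and 2.81 CPM against 45.5, 29.8 and 60.7 CPM (-2.34 ± 0.53, adjusted p = 0.0211). Cd151, the tetraspanin of laminin-binding integrins, and Adam15 fell by 1.41 ± 0.37 and by 0.99 ± 0.22. In kd-labelled libraries 1 and 2, in contrast, Icam2 was at 45.2 and 48.6 CPM and Adam15 at 231 and 227 CPM. Of 40 genes of the intracellular adhesion machinery, 7 rose and 8 fell (median 0.091), beside 11.1% and 9.37% of all genes. Tns1, a tensin that joins beta tails to actin, rose from 19.2 ± 3.17 to 65.7 ± 17.0 CPM (1.78 ± 0.25), and Dab2, an endocytic adaptor that binds beta tails and is abundant in macrophages, rose by 1.34 ± 0.18. The scaffold genes Bcar1 and Nedd9, both substrates downstream of focal adhesion kinase, fell from 122 ± 17.7 to 37.2 ± 7.70 CPM (-1.71 ± 0.21) and from 110 ± 6.61 to 46.9 ± 6.88 CPM (-1.23 ± 0.17). Tns1, at 11.6 and 17.2 CPM in kd-labelled libraries 1 and 2, and Nedd9, at 124 and 91.5 CPM there, overlapped WT by CPM. In FPKM both lay below WT in these libraries. Tns1 was at 0.92 and 1.53 FPKM against 1.98 to 2.69 in WT. Nedd9 was at 21.6 and 16.7 FPKM against 26.8 to 32.2 in WT. Dab2 lay above WT and Bcar1 below WT in every kd-labelled library.

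Of these 16 named partner genes, the calls of Col18a1, Thbs1, Bcar1, Dab2 and Tns1 were kept with each of the 6 libraries left out. Without kd-labelled library 4 those of Fn1 (adjusted p = 0.0514), Col15a1 (0.0654), Adam15 (0.0774), Icam2 (0.101), Madcam1 (0.094), Cd151 (0.131), Sdc4 (0.0552), Bcam (0.0737), Rpsa (0.12), Sgcb (0.12) and Nedd9 (0.0518) were lost, and all of these except Fn1, Sdc4 and Nedd9 were also lost without WT 3 (adjusted p from 0.0687 to 0.143). Leaving out WT 2 ended the calls of Adam15, Icam2, Madcam1, Cd151, Bcam, Rpsa and Sgcb (0.0509 to 0.125), WT 1 those of Adam15, Icam2, Madcam1, Cd151 and Sgcb (0.0503 to 0.0743), and kd-labelled library 5 those of Cd151, Rpsa and Sgcb (0.0536 to 0.0797). That of Madcam1 was also lost without a filter on low counts (0.0607).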

How the data were processed

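The members and the gene lists were chosen with earlier results of these data known, as was the comparison of 6 libraries. Per the file headers, the deposited table holds expected counts per gene, which the authors did not normalise. The FPKM and TPM columns carry the authors' scaling for depth and gene length, per the file headers, and the TPM columns and the normalised count columns (a signal), also deposited by the authors, were not used for results. The submitters' processing notes name HISAT, Bowtie2 and GRCm38.p6. The counting tool is not given in the sources used here, and Smart-seq2, named in the labels' protocols, is a method that does not mark strand, so overlapping antisense reads cannot be told apart. Without molecular identifiers, floors for a count of 0 cover counting error only. The table had 0 columns of libraries outside the series and 8 of group means, which were left out.

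Counts were rounded, filtered with filterByExpr, scaled with TMM and fitted in edgeR 4.0.16 (R 4.3.3) by robust quasi-likelihood, with a two-sided test, with Benjamini-Hochberg adjustment over all genes tested and a threshold of 0.05. CPM values use the scaling of 8 libraries throughout. Fold changes come with standard errors, derived as the absolute log2 fold change divided by the square root of the quasi-likelihood F statistic. Alternatives were DESeq2 1.42.0 and its size factors, voom of limma 3.58.1 with quality weights, library size alone, other filters (none, or 1 CPM in 3 libraries), limma on log2(FPKM + 1) and log2(FPKM + 0.1), each library left out in turn and, with 8 libraries, a replicate block. The code was tested on simulated counts. Counts and sums cover all members, and 1 member is not reported here. The others are described, with values by library above 1 FPKM in any library and otherwise as a range. From each partner list the 4 genes with the smallest p in 6 libraries were named. Figures were made with matplotlib 3.10.9 in Python 3.11.15.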

Additional observations from a re-analysis of the deposited data

Results flagged for a closer look

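Among the 5 libraries labelled knockdown, 3 of the 36 member genes had 1 library far from the other 4, measured as its gap to the nearest one over the whole range (above 0.71). A nominal rate of about 1 in 20 genes assumes 5 libraries drawn from 1 population, and these 5 differed in their marker sums. The share of all genes marked by this rule was not computed, so whether 3 of 36 is unusual was not tested. Lamc3 was at 15.7 CPM and Itga7 at 3.69 CPM in kd-labelled library 5. Itga5 was at 46.5 CPM in kd-labelled library 1, below the other 4.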

How the results depend on the processing

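With 8 libraries, edgeR called 0 members and 0 genes of the 4 partner lists under every alternative run within edgeR, on log2 FPKM and with each library left out. DESeq2 called 6 members higher and 1 lower, beside 13.5% of all genes. Of the listed partners it called 4 of 27 matrix ligands and 2 of 16 counter-receptors. It also called 3 of 12 genes in the list of laminin receptors other than integrins and 11 of 40 adhesion machinery genes. Voom with quality weights called 6 and 2 members, and 5, 5, 5 and 14 genes of those lists, beside 24% of all genes. With the replicate block, the count stayed at 0. Same-numbered libraries correlated at -0.0274, 0.0402 and -0.0449 after removal of group means. Kd-labelled libraries 1 and 2 differed widely from 3 to 5 in marker sums, which enters these values. The correlations therefore cannot settle whether same-numbered libraries share more than a number. With 6 libraries only number 3 is shared, and no paired analysis was possible because the groups then share fewer than 2 numbers. Dropping the composition factor moved the median log2 fold change of all genes from 0.069 to -0.17 with 8 libraries.

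With 6 libraries, voom called 12 members higher and 4 lower and 10 of 16 counter-receptors, beside 45.7% of all genes. DESeq2 called 8 of the 16 counter-receptors, beside 28.8% of all genes. Without a filter 1 member was called lower, beside 7.42% of all genes, and on log2(FPKM + 0.1) also 1, beside 12.6%. With each library left out, 1 to 12 members were called higher and 0 to 2 lower. In the same fits 2 to 11 matrix ligands, 0 to 10 counter-receptors, 0 to 7 genes of the laminin receptor list and 3 to 20 machinery genes were called. The share of all genes called in the same fits was 38.9% without kd-labelled library 3, 1.16% without 4 and 10.7% without 5, and 8.94%, 2.7% and 1.9% without WT 1, 2 and 3. The highest of these counts came without kd-labelled library 3, and 1 member higher without kd-labelled library 4. The cause was not tested. No call changed sign. Among members that were not called, log2 fold changes near 0 did. Itgb5 was at -0.049 without the composition factor and -0.092 with voom, and Itgb7 at -0.078 without that factor and at -0.070 and -0.097 on log2(FPKM + 1) and log2(FPKM + 0.1). With voom, Itga6 was at 0.024 and Itga2 at 0.078. With each library left out, ranges crossing 0 were -0.27 to 0.028 for Itga6, -0.27 to 0.21 for Itga2, -0.17 to 0.94 for Itga2b, -0.26 to 0.26 for Itgb5 and -0.44 to 0.46 for Itgb7.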
